A study of Macaca mulatta with 24 samples.

Results

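The contractile apparatus of smooth muscle was followed in the ileum of Rhesus macaque through ACTA2, ACTG2, TAGLN, MYH11, DES, CNN1, LMOD1, MYLK, SYNM and MYL5. Every probe that carried one of these 10 symbols in the deposited table was taken. Of the 10 symbols 7 were carried by a probe (7 of 16094 distinct symbols), and together they had 12 of the 43603 probes. No probe carried the symbol TAGLN, MYH11 or CNN1, so these 3 genes could not be taken by symbol and are not among the 12 probes. A probe without a symbol that the table describes as transgelin was looked at beside them. ACTA2 had 3 probes, LMOD1, MYLK and MYL5 had 2 each, and ACTG2, DES and SYNM had 1 each. All 12 probes were tested, and 11 of them were well above background on all 24 arrays.

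Ileum came from 24 young-adult male animals with 1 single-colour array each. The 4 controls were unirradiated (0 Gy) and labelled as day 4, and the same 4 served for both doses and all days, so days 7 and 12 had no controls of their own day. The other 20 animals received a single total-body irradiation (TBI) with gamma rays at 6.7 Gy or 7.4 Gy, and tissue was taken at each dose from 4 animals on day 4, from 4 others on day 7 and from 2 on day 12. RNA was drawn from whole gut tissue, that is, from the mucosa and the muscle coats together, so a larger share of muscle in a piece of tissue and more RNA per muscle cell cannot be told apart. The share of probes well above background was 72.7% to 88.1% per array, and no spot was saturated.

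The wall of the ileum holds an inner circular and an outer longitudinal layer of smooth muscle, whose contraction mixes and moves the contents. Calcium bound to calmodulin activates myosin light chain kinase, which phosphorylates the regulatory light chain of myosin and lets the motor pull on actin filaments. Desmin and its partners form intermediate filaments that tie dense bodies and the cell surface together and carry the force. Of the genes that define the cell type in the lists used here, DES and ACTG2 were well above background on all 24 arrays, and MYH11 and CNN1 could not be examined.

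Levels are given as log2 intensity relative to the 75th percentile of the same array, so that a level of 0 is the brightness of that percentile. A change is a difference between 2 group means on this log2 scale. A probe was called altered when limma's Benjamini-Hochberg adjusted p over all 36110 tested probes was under 0.05 and the change was at least 2-fold.

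One control stood apart and bears on every comparison with the controls. In control replicate 1, 11 of the 12 probes were at least 2-fold lower than the mean of the other 3 controls, and the same 11 were at their lowest of all 24 arrays. The median difference over the 12 probes was -2.20, against -0.04 over all tested probes, of which 5.48% were at least 2-fold lower there and 2.08% at least 2-fold higher. SYNM was at -2.90 against 0.95 ± 0.04 (SD, n = 3), a 14.4-fold difference. ACTG2 was at 5.04 against 8.15 ± 0.12 (SD, n = 3), or 8.62-fold lower. The 3 ACTA2 probes differed least among the 11, from 2.04-fold to 2.19-fold. The dimmer MYL5 probe was the exception, at -7.08 in control replicate 1 and -7.57 ± 0.23 (SD, n = 3) in the others, and no control array showed it well above background.

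**Figure D1:**
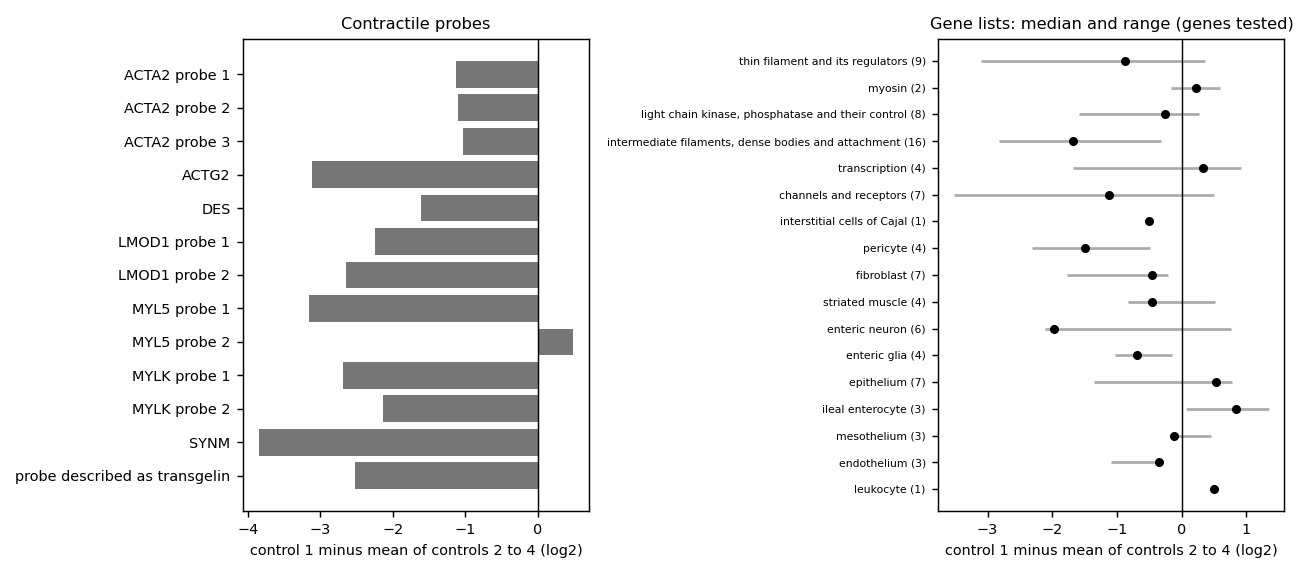
Log2 difference between control replicate 1 and the mean of control replicates 2 to 4, for the 12 contractile probes and a probe described as transgelin (left, bars) and for the lists of other contractile genes and cell type markers (right, points are medians and lines run from the lowest to the highest gene, with the number of genes tested). The bars reach -3.85 for SYNM and point left for 11 of the 12 probes, and the medians run from -1.98 for enteric neuron to 0.84 for ileal enterocyte.

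Other genes were low in the same animal, within the muscle coat and outside it. A probe without a symbol, described in the table as transgelin, the actin-binding protein that TAGLN encodes, was at 4.26 in control replicate 1 and at 6.78 ± 0.05 (SD, n = 3) in the others. In the 20 irradiated animals it lay between 6.16 and 7.16, with 6.92 ± 0.23 (SD, n = 4) on day 4 after 7.4 Gy, and these values are given without a test. Of 46 other contractile genes with a tested probe, 22 were at least 2-fold lower and 0 at least 2-fold higher, with a median of -0.92. The lowest were PLN, the regulator of the calcium pump of the sarcoplasmic reticulum, at -3.52, TPM2, the tropomyosin that winds around actin, at -3.11, and SYNPO2, an actin-binding protein, at -2.82. Markers of enteric neurons, which lie between and beneath the muscle layers, had a median of -1.98 with 5 of 6 at least 2-fold lower. Pericyte markers had a median of -1.49 with 3 of 4 at least 2-fold lower, enteric glia markers a median of -0.69 with 1 of 4, and fibroblast markers a median of -0.45 with all 7 below 0 and 1, PI16 at -1.77, at least 2-fold lower. Markers of epithelium had a median of 0.52, although FABP2 among them was at -1.36, and those of ileal enterocytes 0.84. The summed level of the epithelium markers was 218 times the 75th percentile in control replicate 1 and 132 to 163 times in the other controls. The part of tissue composition in this array's values was not tested. Comparisons of the contractile probes with the controls are therefore given with the 4 controls and again without control replicate 1. Leaving out single animals was among the checks set beforehand, but this animal was singled out throughout because of the values above.

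On day 4 after 7.4 Gy, the contractile probes stood higher than in the controls, but few passed the test and most of the difference went with control replicate 1. With 4 controls, all 12 changes were above 0, with a median of 1.03 against -0.07 over all tested probes, and 2 of 12 probes were called altered, where 2.33% of all tested probes were. These were the dimmest ACTA2 probe and the dimmer MYL5 probe. The latter met the filter on dim probes solely through the group in which it is high, so its place in these counts is a description and is not read against the shares of all probes. Before adjustment, at the same fold and p under 0.05, 8 probes passed, the dimmer MYL5 probe among them. The unmoderated test named in the methods called 0 probes after adjustment and 3 before it. For the counts before adjustment the share of all tested probes is not given, so they are descriptions. Without control replicate 1 the median was 0.43, 11 of 12 changes were above 0, and 1 of 12 probes, the dimmer MYL5 probe, was called, where 1.11% of all tested probes were, so that 0 of the 11 probes measured above background on all arrays were called. In both settings the 4 animals lay above every control for 8 of the 12 probes, which come from 5 genes. Over all tested probes the share was 7.84% with 4 controls and 9.3% without control replicate 1. The dimmer MYL5 probe is among the 8 and is again not read against these shares. Control replicate 1 was the lowest array for the other 11 probes, so leaving it out could not change their count.

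**Figure D2:**
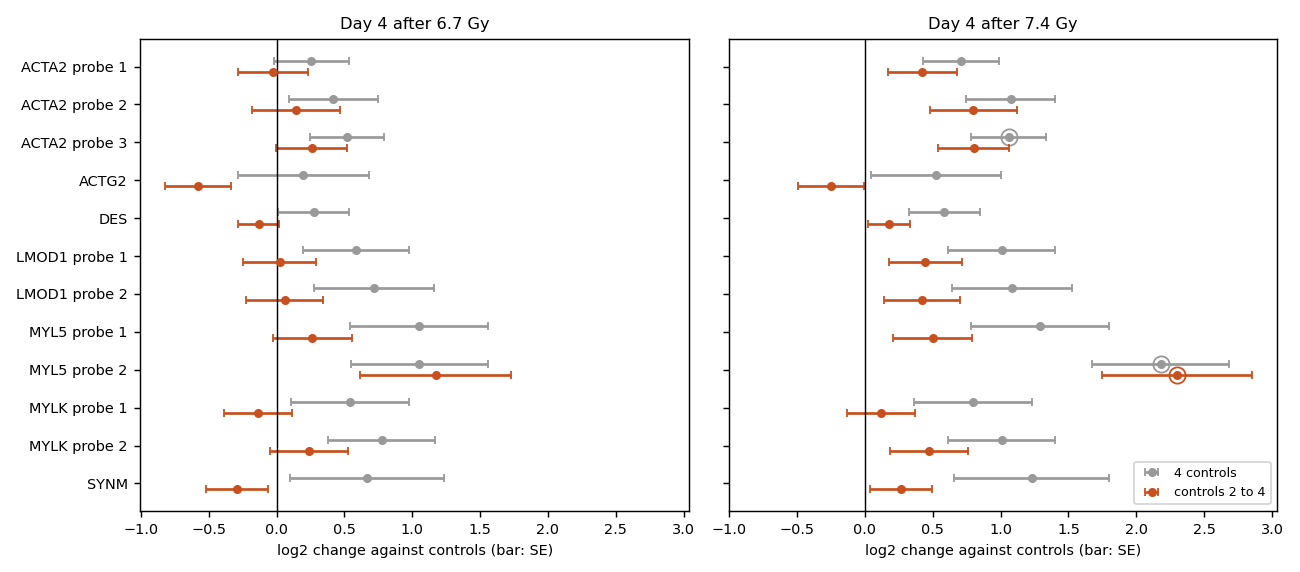
Log2 change of each contractile probe on day 4 after 6.7 Gy (left) and 7.4 Gy (right) against all 4 controls (grey) and against control replicates 2 to 4 (orange), with standard errors as bars and a ring around probes called altered. At 7.4 Gy the grey points of ACTA2 probe 3 (1.06) and MYL5 probe 2 (2.18) are ringed, and of the orange points MYL5 probe 2 (2.30) is.

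Among the thin filament genes, ACTA2 encodes the alpha actin shared by vascular and visceral smooth muscle and by myofibroblasts. Its brightest probe was at 3.59, 4.70, 4.89 and 4.56 in the 4 controls and at 5.48, 5.23, 4.80 and 5.05 on day 4 after 7.4 Gy. The groups overlapped, since the lowest irradiated animal lay below control replicate 3. The second probe was at 2.26, 3.32, 3.30 and 3.46 in the controls and at 4.18, 4.43, 3.92 and 4.12 on day 4 after 7.4 Gy, with no overlap. The dimmest probe was at 1.04, 2.15, 2.16 and 1.90 in the controls and at 3.00, 3.01, 2.69 and 2.78 after 7.4 Gy, again with every irradiated animal above every control.

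The dimmest ACTA2 probe rose by 1.06 ± 0.27 (SE), and limma gave an adjusted p of 0.027. The second probe changed by 1.07 ± 0.33 (SE) with an adjusted p of 0.054, and the brightest by 0.71 ± 0.28 (SE) with an adjusted p of 0.129. Against the other 3 controls the changes were 0.80 ± 0.26, 0.80 ± 0.32 and 0.42 ± 0.26 (SE) in the same order, with limma adjusted p of 0.103, 0.186 and 0.388, so the call of the dimmest probe was lost with that animal. It was lost as well without replicate 1 or replicate 2 of the irradiated group, at a change of 1.01 in each case. With the position of the array on its slide as a covariate the change was 1.58, and it was not called. The second probe, conversely, became called with slide as a random block (1.06), with an intensity trend and robust moderation (1.07), among probes above background on every array (1.07) and without control replicate 4 (1.20). Within slides, on which a control and an irradiated animal were hybridized together, the dimmest probe was 0.84 higher after 7.4 Gy on slide 3 and 1.11 higher on slide 4. Control replicate 1 is on neither of these slides.

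ACTG2 encodes the gamma actin of visceral smooth muscle. It was at 5.04, 8.23, 8.22 and 8.01 in the controls and at 8.06, 8.07, 7.81 and 7.67 on day 4 after 7.4 Gy. Of the irradiated animals 2 lay within the range of control replicates 2 to 4 and 2 below it. The change was 0.53 ± 0.48 (SE) with 4 controls and -0.25 ± 0.24 (SE) without control replicate 1, with limma adjusted p of 0.544 and 0.604. The sign of the ACTG2 change thus rested on that single array, and neither value passed the test.

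LMOD1 encodes leiomodin 1, which nucleates actin filaments in smooth muscle. Its brighter probe was at -1.98, 0.12, 0.24 and 0.45 in the controls and at 1.35, 0.55, 0.50 and 0.46 on day 4 after 7.4 Gy. The irradiated animals lay above the controls, 3 of them by little. The changes of its 2 probes were 1.01 ± 0.39 and 1.08 ± 0.44 (SE) with 4 controls, and 0.44 ± 0.27 and 0.42 ± 0.28 (SE) without control replicate 1, with limma adjusted p from 0.123 to 0.437.

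In the motor and its kinase, MYL5 encodes a regulatory light chain of myosin. Its 2 probes did not run alike. The brighter one was at -3.47, -0.20, -0.47 and -0.27 in the controls and at 0.60, -0.13, 0.00 and 0.28 on day 4 after 7.4 Gy. It changed by 1.29 ± 0.51 (SE) with 4 controls and by 0.50 ± 0.29 (SE) without control replicate 1, with limma adjusted p of 0.127 and 0.371. The dimmer probe was at -7.08, -7.63, -7.76 and -7.31 in the controls, where no array showed it well above background. On day 4 after 7.4 Gy it was at -4.98, -5.81, -4.57 and -5.71 and well above background on 4 of 4 arrays. The 2 groups did not overlap for either probe.

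The filter on dim probes kept this probe through a single group, day 4 after 7.4 Gy, the one in which all arrays showed it well above background, and its limma adjusted p of 0.016 with 4 controls and 0.034 without control replicate 1 is therefore a description. With no filter on dim probes, over all 43603 probes, the adjusted p in limma was 0.023 and 0.048. Against a floor set for the controls, the level after 7.4 Gy was 3.25-fold higher, or 3.16-fold without control replicate 1. The floor of each control was the higher of 2 values, its own signal and the lowest signal of any probe well above background on that array. It is not a limit for this probe, so these folds are no strict bounds. Elsewhere this probe was not well above background at -6.53 (replicate 2 of day 7 after 6.7 Gy) or at -6.54 (replicate 2 of day 12 after 6.7 Gy). The fitted change was 2.18 ± 0.51 (SE) from a mean of -7.44 in the controls to -5.27, and it is no bound. With the normexp background correction, which treats dim spots differently, the fitted change was 0.39 and the probe was not called. With the position of the array on its slide as a covariate the change was 1.41, and it was not called either. The call was lost as well without replicate 1 or replicate 3 of the irradiated group, at changes of 2.08 and 1.95. All controls were hybridized at position 1 of a slide and all 4 animals of this group at position 2.

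**Figure D3:**
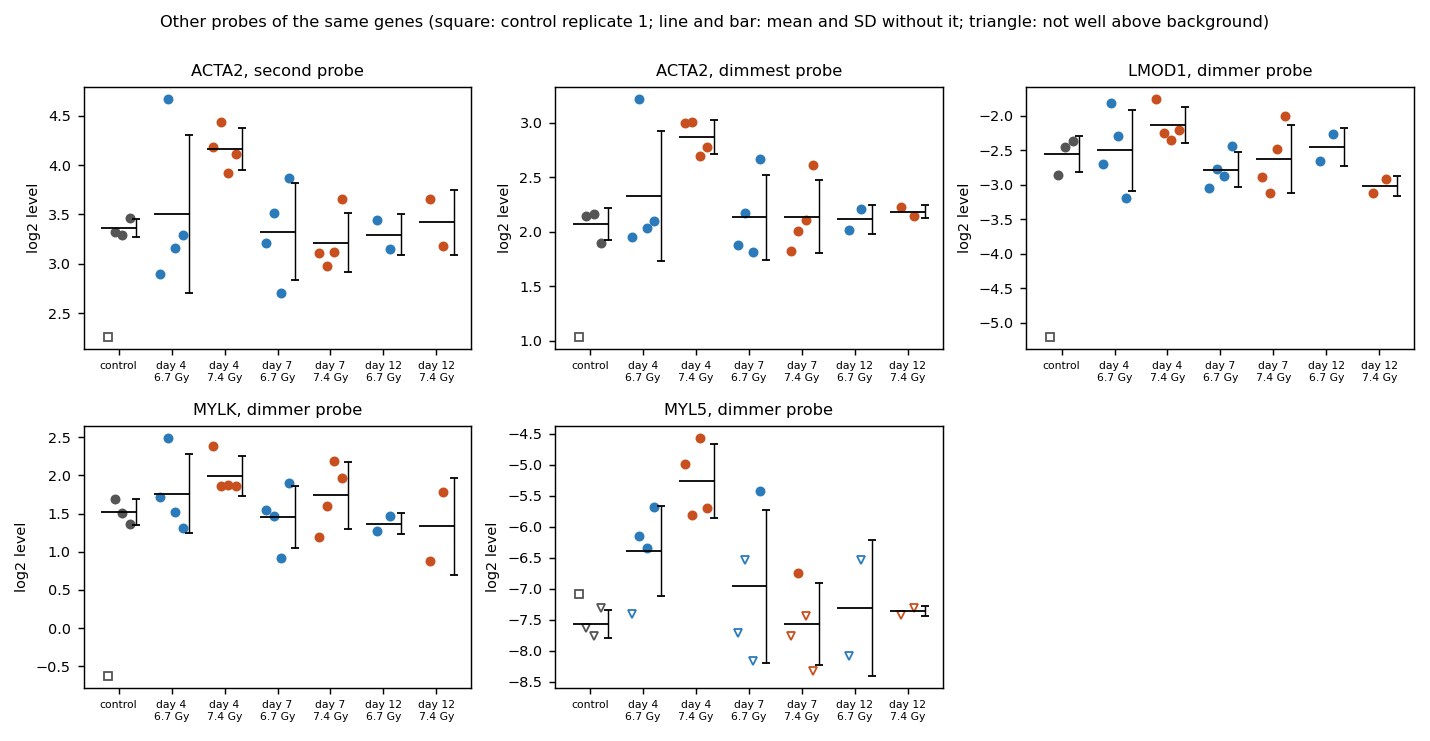
Log2 level of the dimmer probes of ACTA2, LMOD1, MYLK and MYL5 on each of the 24 arrays by group, with the mean and SD drawn without control replicate 1 (open square). Triangles are arrays on which a probe was not well above background, as is the square in the MYL5 panel; the dimmer MYL5 probe lies between -5.81 and -4.57 on day 4 after 7.4 Gy and between -7.76 and -7.08 in the controls.

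MYLK encodes the myosin light chain kinase. Its brighter probe was at 3.43, 6.51, 5.88 and 5.99 in the controls and at 6.62, 6.52, 5.98 and 5.86 on day 4 after 7.4 Gy. The 2 groups overlapped, with 2 irradiated animals close to the higher control and 2 close to the lower ones. The change was 0.79 ± 0.43 (SE) with 4 controls and 0.12 ± 0.25 (SE) without control replicate 1, with limma adjusted p of 0.277 and 0.830. The dimmer MYLK probe changed by 1.01 ± 0.39 (SE) and by 0.47 ± 0.29 (SE), with limma adjusted p of 0.125 and 0.394.

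Of the intermediate filament genes, DES encodes desmin, the filament protein of muscle. It was at 5.79, 7.39, 7.45 and 7.39 in the controls and at 7.93, 7.56, 7.49 and 7.38 on day 4 after 7.4 Gy. Apart from control replicate 1 the animals of both groups differed little, and the lowest irradiated animal lay below the controls 2 to 4. The change was 0.58 ± 0.26 (SE) with 4 controls and 0.18 ± 0.15 (SE) without control replicate 1, with limma adjusted p of 0.180 and 0.554. SYNM encodes synemin, which co-assembles with desmin. It was at -2.90, 0.99, 0.95 and 0.91 in the controls and at 1.50, 1.26, 1.03 and 1.07 on day 4 after 7.4 Gy. Every irradiated animal lay above every control, yet the change of 1.23 ± 0.57 (SE) fell to 0.27 ± 0.23 (SE) without control replicate 1, with limma adjusted p of 0.195 and 0.562.

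**Figure D4:**
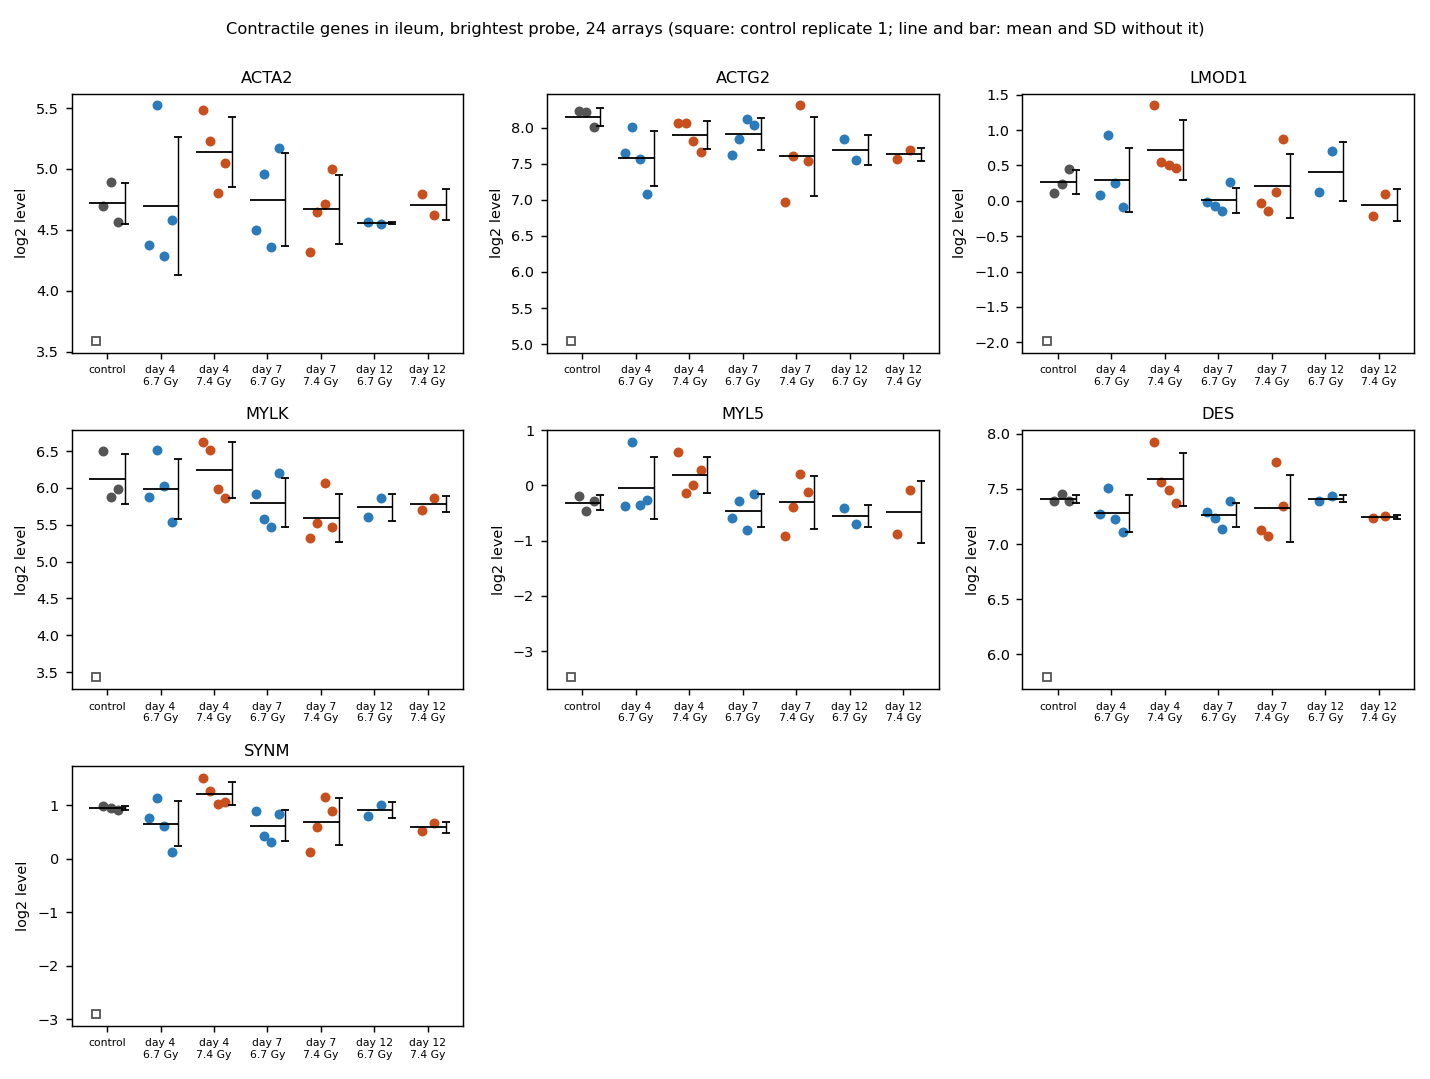
Log2 level of the brightest probe of each of the 7 genes on each of the 24 arrays by group (grey controls, blue 6.7 Gy, orange 7.4 Gy), with the mean and SD drawn without control replicate 1, the open square at the bottom of each panel. For ACTG2 the other 23 arrays lie between 6.97 and 8.31 and the square at 5.04.

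On day 4 after 6.7 Gy, 0 of 12 probes were called altered by limma with 4 controls, where 0.978% of all tested probes were, and 0 without control replicate 1, where 0.615% were. Before adjustment, at the same fold and p under 0.05, 0 probes passed with 4 controls and 1, the dimmer MYL5 probe, without control replicate 1. The test of the methods called 0 after adjustment and 1 before it. The median change was 0.56 with 4 controls and 0.04 without control replicate 1, with 12 and 7 of 12 changes above 0. The brightest ACTA2 probe was at 4.38, 5.52, 4.29 and 4.58 in these 4 animals, and the second animal was also the highest of its group for every probe but the dimmer MYL5 probe. ACTG2 was at 7.65, 8.01, 7.56 and 7.08, and changed by -0.58 ± 0.24 (SE) without control replicate 1, with a limma adjusted p of 0.205. The dimmer MYL5 probe was at -7.41, -6.14, -6.34 and -5.68 and well above background on 3 of the 4 arrays, with a limma adjusted p of 0.220 against the controls. No fold is given, since 1 of these arrays and all control arrays did not measure it.

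When both doses of day 4 were pooled, 1 of 12 probes was called with 4 controls, where 2.06% of all tested probes were, and 0 without control replicate 1, where 1.07% were. The call was lost when control replicate 1, 2 or 3 was left out. The probe called was the dimmer MYL5 probe, which entered the test through its high level on day 4 after 7.4 Gy, so that this count too is a description. Its fitted change against 4 controls, 0 of which showed it well above background, was 1.62 ± 0.44 (SE), with a limma adjusted p of 0.028, or 0.038 with no filter on dim probes. Leaving out control replicate 1 gave 1.74 ± 0.49 (SE) with a limma adjusted p of 0.056, or 0.077 with no filter, and it was then the only 1 of the 12 to pass before adjustment. The test of the methods called 0 of 12 with 4 controls after adjustment and 1 before it.

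On days 7 and 12 none of the 12 probes was called in any comparison with the controls, with or without control replicate 1, and 0 passed in limma before adjustment at the same fold. The test of the methods, run with 4 controls, also called 0 before and after adjustment. Of all tested probes 0.235% were called on day 7 after 6.7 Gy, 0.568% on day 7 after 7.4 Gy and 0.573% for both doses pooled. With control replicate 1 left out these shares were 0.102%, 0.396% and 0.404%. On day 12 the shares were 0.108% after 6.7 Gy, 0.0443% after 7.4 Gy and 0.244% for both doses, and without control replicate 1 they were 0.0305%, 0.036% and 0.119%. The 2 animals per dose on day 12 limit what could be called there. All controls were hybridized at position 1 of a slide and these animals at position 3 or 4. Day and array position therefore cannot be told apart in these comparisons.

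The direction on these days turned with the choice of controls. With 4 controls the median change of the 12 probes was 0.39 on day 7 after 6.7 Gy, 0.32 on day 7 after 7.4 Gy, 0.35 on day 12 after 6.7 Gy and 0.30 on day 12 after 7.4 Gy. Against the other 3 controls these medians were -0.15, -0.06, -0.05 and -0.18. ACTG2 was at 7.63, 7.85, 8.12 and 8.04 on day 7 after 6.7 Gy, at 6.97, 7.60, 8.31 and 7.54 on day 7 after 7.4 Gy, at 7.84 and 7.55 on day 12 after 6.7 Gy and at 7.56 and 7.70 on day 12 after 7.4 Gy. All of these arrays lay above control replicate 1, and only 3 of the 12, all of day 7, lay within the range of the other controls or above it. The largest change in size on day 12 without control replicate 1 was that of ACTG2 after 7.4 Gy, at -0.52 ± 0.29 (SE), with a limma adjusted p of 0.683.

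DES stayed within a narrow range in the irradiated animals. Its mean was 7.28 ± 0.16 (SD, n = 4) on day 4 after 6.7 Gy, 7.26 ± 0.11 (SD, n = 4) on day 7 after 6.7 Gy and 7.32 ± 0.30 (SD, n = 4) on day 7 after 7.4 Gy. The 2 animals per dose of day 12 were at 7.41 ± 0.03 (SD) after 6.7 Gy and 7.25 ± 0.01 (SD) after 7.4 Gy. The highest mean, 7.59 ± 0.24 (SD, n = 4), was that of day 4 after 7.4 Gy, followed by day 12 after 6.7 Gy and by control replicates 2 to 4, whose means were both 7.41 (SD 0.04, n = 3, in the controls). Every pair of neighbours in this order overlapped in their arrays. Over the 23 arrays without control replicate 1, DES spanned 0.85 on the log2 scale, the least of the 12 probes, and the dimmer MYL5 probe 3.76, the most.

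The means of the brightest ACTA2 probe were 5.14 ± 0.29 (SD, n = 4) on day 4 after 7.4 Gy, 4.75 ± 0.38 (SD, n = 4) on day 7 after 6.7 Gy and 4.72 ± 0.17 (SD, n = 3) in control replicates 2 to 4. Below these came 4.71 ± 0.13 (SD, n = 2) on day 12 after 7.4 Gy, 4.69 ± 0.57 (SD, n = 4) on day 4 after 6.7 Gy, 4.67 ± 0.28 (SD, n = 4) on day 7 after 7.4 Gy and 4.55 ± 0.01 (SD, n = 2) on day 12 after 6.7 Gy. The 6 means after the first differed by less than the SD among the 4 animals of day 4 after 6.7 Gy.

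The dose was compared on each day between animals of 7.4 Gy and 6.7 Gy, which does not involve the controls' means. None of the 12 probes was called by limma on day 4, 7 or 12, and of all tested probes 0.0% were called on day 4, 0.0% on day 7 and 0.00277% on day 12. Before adjustment, at the same fold and p under 0.05, 1 probe passed on day 4 and 0 on the other days, and the test of the methods called 0 on every day with and without adjustment. The probe of day 4 was the dimmer MYL5 probe, which met the filter on dim probes through the higher dose and was not measured above background on 1 of the 4 arrays at 6.7 Gy, so its fitted difference of 1.13 ± 0.51 (SE) is a description and no bound. The 12 fitted differences of day 4 were all above 0, with a median of 0.39, against a median of 0.03 over all tested probes. The other 11 ran from 0.23 to 0.66, the highest being that of the second ACTA2 probe at 0.66 ± 0.33 (SE), with a limma adjusted p of 0.877. On day 7 the median difference was 0.03 and on day 12 it was -0.04, with 7 and 5 of the 12 probes higher after 7.4 Gy. The day 12 arrays of 6.7 Gy were on slides 3 and 4, and those of 7.4 Gy were on slides 5 and 6, scanned on another day. On day 12 the dose therefore cannot be told apart from slide or scan day.

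The days were compared over both doses pooled. All arrays of day 4 were at position 1 or 2 of a slide, those of day 7 at 3 or 4 and those of day 12 at 4. Day 4 therefore cannot be told apart from array position in the comparisons with later days. From day 4 to day 7, 1 of 12 probes was called, where 1.06% of all tested probes were, and from day 4 to day 12, 1 of 12, where 2.76% were. In both comparisons it was the dimmer MYL5 probe, which met the filter on dim probes through day 4 after 7.4 Gy, so that neither count is read against these shares. Its fitted differences were -1.44 ± 0.36 (SE) for day 7 and -1.51 ± 0.44 (SE) for day 12, with limma adjusted p of 0.013 and 0.025, and with no filter on dim probes 0.019 and 0.034. With the normexp background correction the differences were -0.12 and -0.22, and neither was called. The probe was well above background on 7 of 8 arrays of day 4, on 2 of 8 of day 7 and on 0 of 4 of day 12. The call of day 12 was lost when replicate 1 of 6.7 Gy or either animal of 7.4 Gy on day 12 was left out, at changes of -1.12, -1.48 and -1.54. No limit on the fold is given for either comparison, since 1 array of day 4 did not measure it and some arrays of day 7 did. The test of the methods called 0 probes after adjustment and 1 before it in each of these comparisons.

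Of the other 11 probes, 10 were lower on day 7 than on day 4 and 11 were lower on day 12, and none of these differences passed the test. The median change of the 12 probes was -0.39 from day 4 to day 7 and -0.39 from day 4 to day 12, against 0.05 and 0.09 over all tested probes. The second ACTA2 probe changed by -0.56 ± 0.23 (SE) and the dimmest by -0.46 ± 0.19 (SE) from day 4 to day 7, with limma adjusted p of 0.110 and 0.116. ACTG2 changed by 0.02 ± 0.34 (SE), with an adjusted p of 0.978. From day 7 to day 12, 0 of 12 probes were called by limma and 0 by the test of the methods, with 0 before adjustment in either. There 0.114% of all tested probes were called, and the median change of the 12 was -0.01.

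The levels of the 7 genes ran together across animals, and part of this came with control replicate 1. Over the 24 arrays Pearson's r between the brightest probes of 2 genes was 0.67 to 0.97 with a median of 0.88 over 21 pairs. Over the 23 arrays without control replicate 1 it was 0.25 to 0.88 with a median of 0.65. These are descriptions, since the arrays share slides and groups. DES and SYNM, the filament partners, were the closest pair of different genes over the 23 arrays among these brightest probes, with r of 0.88 (Spearman's rho 0.92) and with r of 0.82 after the group means were removed. ACTG2 and the brighter LMOD1 probe were the least alike, with r of 0.25. Probes of the same gene had r of 0.88 to 0.93 for ACTA2, 0.93 for LMOD1 and 0.67 for MYLK over the 23 arrays. The 2 MYL5 probes had r of 0.33 over the 24 arrays and 0.54 over the 23.

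**Figure D5:**
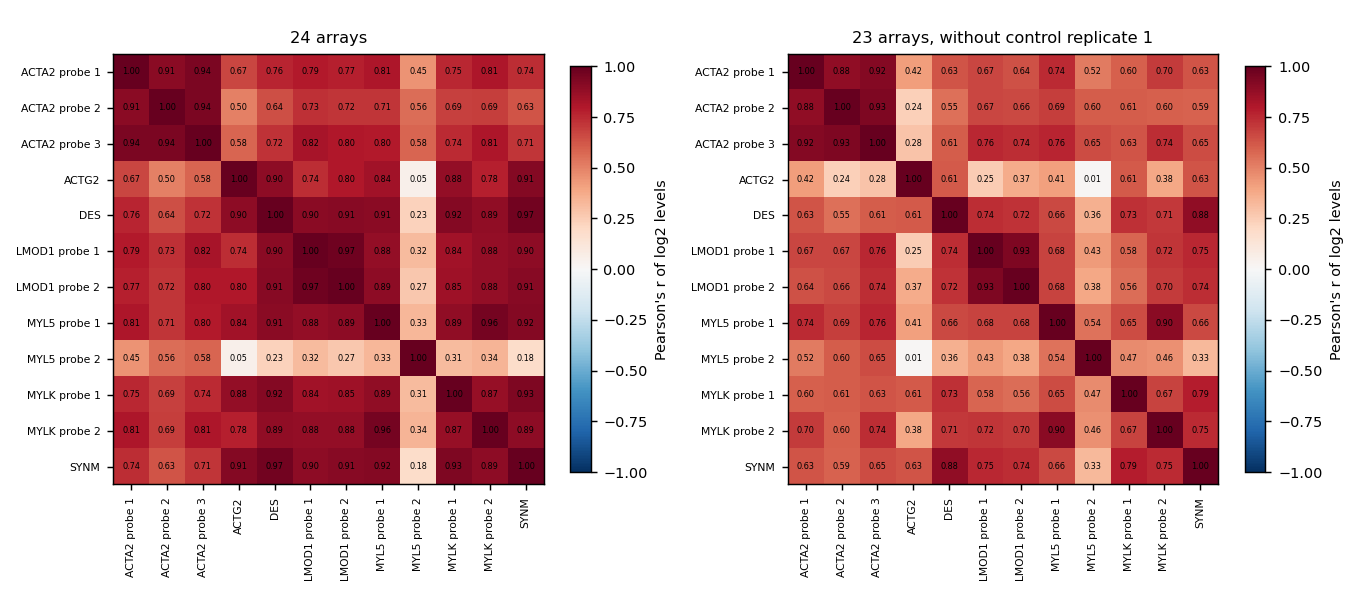
Pearson's r between the log2 levels of each pair of the 12 contractile probes over all 24 arrays (left) and over 23 arrays without control replicate 1 (right), printed in each cell and shown by colour from -1 to 1. MYL5 probe 2 has an r of 0.05 to ACTG2 over 24 arrays and 0.33 to MYL5 probe 1, and the r of ACTG2 to LMOD1 probe 1 is 0.74 on the left and 0.25 on the right.

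MYH11 was to serve as the reference for genes with a like pattern, and DES was taken in its place because no probe carried the symbol MYH11. The 10 other genes whose brightest probe followed DES most closely over the 24 arrays were FLNA (r of 0.97), TPM2 (0.95), CIB4 (0.94), CALD1 (0.93), LOC100429203 (0.93), LOC700223 (0.93), NKD1 (0.92), JPH2 (0.92), MSRB3 (0.91) and POPDC2 (0.90). FLNA encodes filamin A, which cross-links actin filaments, CALD1 encodes caldesmon, which restrains actomyosin, and JPH2 encodes a junctophilin that holds the sarcoplasmic reticulum to the cell surface. Over 23 arrays FLNA was still the first, with r of 0.88, and TPM2 (0.81), LOC100429203 (0.79) and NKD1 (0.77) were the others of these 10 that stayed among the first 10. The 5 genes closest to the brighter MYL5 probe over 24 arrays were CIB4 (0.98), LOC700223 (0.97), AOC3 (0.95), PDZRN4 (0.94) and CALD1 (0.94), and over 23 arrays CIB4 (0.93), AOC3 (0.90) and LOC700223 (0.90) were still among the first 5.

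The other genes of the contractile pathway were taken from 6 lists of 79 genes, of which 46 had a tested probe. Among them 4 of 46 were called higher and 0 lower on day 4 after 7.4 Gy with 4 controls, with a median change of 0.51, where 2.33% of all tested probes were called. Without control replicate 1, 1 of 46 was called higher and 0 lower, where 1.11% of all tested probes were called, and the median was 0.22. A single gene of 46 is near that share. HSPB8, a small heat shock protein that acts in chaperone-assisted turnover of muscle proteins, was the gene called in both settings, with a rise of 1.63 ± 0.38 (SE) and of 1.11 ± 0.27 (SE) and limma adjusted p of 0.016 and 0.036. The other 3 were FERMT2, the integrin activator kindlin-2, at 1.17 ± 0.28 (SE), FHL1, a LIM-domain protein of muscle, at 1.13 ± 0.34 (SE), and KCNMA1, the pore of the large-conductance potassium channel, at 1.25 ± 0.37 (SE). The changes of these 3 without control replicate 1 were 0.81, 0.71 and 0.66, with limma adjusted p of 0.053, 0.167 and 0.087. For the same genes, control replicate 1 minus the other controls was -1.44, -1.68 and -2.37.

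By list, the intermediate filament, dense body and attachment genes had the highest median on day 4 after 7.4 Gy, at 0.87 over 16 genes, 2 of them called, and 0.40 without control replicate 1, with 16 of 16 changes above 0 in both settings. The channels and receptors had a median of 0.64 over 7 genes with 1 called, and the transcription genes 0.15 over 4 genes with 1 called, and without control replicate 1 these medians were 0.22 and 0.23 with 0 called in either list. The lists of thin filament regulators (9 genes), of myosin (2 genes) and of the light chain kinase, phosphatase and their control (8 genes) had medians of 0.04, -0.23 and 0.12 with 0 called. Without control replicate 1 they were at 0.01, -0.18 and -0.03, again with 0 called, so the sign turned for the last of them. In the other 5 comparisons of an irradiated group with the controls, 0 of the 46 genes were called in limma in either setting. Before adjustment, at the same fold, 0 to 2 genes passed with 4 controls and 0 or 1 without control replicate 1.

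Markers of other cells moved on day 4 as well. On day 4 after 7.4 Gy, with 4 controls, 3 of 7 fibroblast markers (COL3A1, DCN and LUM), the enteric neuron markers ELAVL4 and SNAP25, 1 of 4 pericyte markers (KCNJ8) and 1 of 3 endothelium markers (VWF) were called higher, while 1 of 7 epithelium markers, VIL1, was called lower. Over all tested probes 2.33% were called in this comparison with 4 controls and 1.11% without control replicate 1. The enteric neuron markers had a median change of 1.19, or 0.73 without control replicate 1, with 6 of 6 above 0 in both settings. Without control replicate 1, DCN, a collagen-binding proteoglycan, stayed higher by 1.06 ± 0.27 (SE) and VIL1, the villin of the brush border, stayed lower with a change of -1.13 ± 0.19 (SE), with limma adjusted p of 0.040 and 0.005. The others named were no longer called, at changes of 0.98 for LUM (1.09 with 4 controls), 0.89 for COL3A1 (1.01), 1.1 for SNAP25 (1.62), 0.76 for ELAVL4 (1.22), 0.78 for KCNJ8 (1.13) and 0.85 for VWF (1.12), with limma adjusted p of 0.053 for LUM and from 0.120 to 0.151 for the rest. KRT20, a keratin of differentiated epithelium, and VIL1 were called lower on day 4 after 6.7 Gy with 4 controls, at -1.05 and -1.32, with limma adjusted p of 0.015 and 0.001, where 0.978% of all tested probes were called. Without control replicate 1, VIL1 was called, at -1.18 with a limma adjusted p of 0.006, where 0.615% were, and KRT20 just missed the call, at -0.85 with a limma adjusted p of 0.0503. None of the tested markers of interstitial cells of Cajal (1 gene), striated muscle (4), enteric glia (4), ileal enterocytes (3), mesothelium (3) or leukocytes (1) was called in limma on day 4 after 7.4 Gy in either setting. The summed level of the fibroblast markers was 81.9 to 147 times the 75th percentile on day 4 after 7.4 Gy and 38.8 to 70.1 times in the controls, with no overlap. The summed level of the epithelium markers was 101 to 122 times against 132 to 218 times in the controls, also without overlap. By gene, 5 of the 7 epithelium markers had a change below 0 and 2 above 0, in both settings. These sums weigh the brightest genes most, and no share over all probes is given beside them. The brightest probes of the 7 contractile genes summed to 465 to 661 times on day 4 after 7.4 Gy, to 112 times in control replicate 1 and to 517 to 589 times in the other controls. Pericytes and myofibroblasts also carry ACTA2, and the part of these cells in its values was not tested.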

How the data were processed

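Total RNA of 24 ileum samples was labelled and hybridized by the authors to Agilent single-colour Rhesus Macaque arrays and read with Feature Extraction 11.0.1.1. The deposited spot intensities are background-subtracted (raw table and scanner files) or plain spot and background medians. The deposited log2 table was scaled by the authors to the 75th percentile of each array.

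From the scanner files, log2 intensities were averaged over the spots of a probe and set relative to the 75th percentile of all non-control probes on the same array. Testing was limited to the 36110 of 43603 probes that exceeded background throughout at least 1 of the 7 groups. One linear model with a mean per group was fitted (limma 3.58.1, R 4.3.3), after it had been tested on simulated data. Tables were made in Python 3.11.15. Symbols came from the deposited table, and 121 more probes were named through RefSeq accessions for the lists. Precision is limited by the number of arrays, and p-values measure the spread between animals of a group.

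The genes, the gene lists and the tests were chosen with earlier results of these data known. All member probes were named; of the list genes, those called against the controls, apart from an item that is not reported here; and the genes most correlated with DES (10) and MYL5 (5). DES replaced MYH11, whose symbol no probe carried, after the data had been seen. For day 12 the titles and the day field were used, although the protocol text of the labels gives another last day. Replicate numbers did not pair animals: over 62 pairs of arrays with the same number the median correlation of deviations was 0.03 (-0.26 to 0.36). Alternatives were normexp (offset 50, on spot medians, in place of the mean signal), quantile normalization, the deposited log2 table, other filters, slide, array position, replicate number or scan day as a term, robust moderation, only the groups compared, the t-test of the methods, and leaving out animals. Scan day, and control replicate 1 left out together with another choice, were added after the data had been seen.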

Additional observations from a re-analysis of the deposited data

Results flagged for a closer look

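Of 60 groups of 4 arrays (12 probes in 5 groups), 11 held an array far from the other 3 by Dixon's test, which flags about 1 group in 20 by chance; the probes are not independent, since they come from the same animals. In 7 of the 11 the array was control replicate 1, which was low: ACTA2 probe 2 (2.26), ACTG2 (5.04), DES (5.79), LMOD1 probe 1 (-1.98), MYL5 probe 1 (-3.47), MYLK probe 2 (-0.62) and SYNM (-2.90). Control replicates 2 to 4 were at 3.32, 3.30 and 3.46 for ACTA2 probe 2, and at 1.69, 1.51 and 1.36 for MYLK probe 2. Replicate 2 of day 4 after 6.7 Gy was high for ACTA2 probe 3 (3.22) and MYL5 probe 1 (0.79). Replicate 1 of day 4 after 7.4 Gy was high for LMOD1 probe 1 (1.35) and MYLK probe 2 (2.38).

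The level of MYL5 probe 2 differed between days in limma, with a change of -1.44 from day 4 to day 7 and of -1.51 from day 4 to day 12 over both doses. The probe met the filter on dim probes through day 4 after 7.4 Gy, where it is high, so these values are a description; with no filter on dim probes the limma adjusted p was 0.019 and 0.034, and with normexp the changes were -0.12 and -0.22 and were not called. It was well above background on 7 of 8, 2 of 8 and 0 of 4 arrays of these days. No other contractile probe differed between days by this test. Day 4 cannot be told apart from array position in these values.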

How the results depend on the processing

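The counts of altered contractile probes on days 7 and 12 against the controls, between doses, and from day 7 to day 12 stayed at 0 in every alternative run. Array position was not fitted for days 7 and 12 against the controls or against day 4. On day 4 after 6.7 Gy the count was 0 except for 1 with the methods' t-test without adjustment. MYL5 probe 2 met the filter on dim probes through a single group, day 4 after 7.4 Gy, so the counts that hold it are descriptions. On day 4 after 7.4 Gy the count of 2 became 1 with normexp or with only the groups compared, and 0 with array position as a covariate or with the methods' t-test, and 3 with slide as a random block, with robust moderation or with the methods' t-test without adjustment; leaving out 1 animal gave 0 to 3, with 3 without control replicate 4, 1 without control replicate 1 and without replicate 2 or 3 of the irradiated group and 0 without its replicate 1. Without control replicate 1 the count of 1 became 0 with normexp, quantile normalization, slide as a fixed block, array position or scan day, with changes of MYL5 probe 2 of 0.41, 2.40, 2.33, 1.53 and 2.28 in that order against 2.30, and was 0 to 1 when another animal was left out: 0 without control replicate 2, 3 or 4 or replicate 1 or 3 of the irradiated group. For both doses of day 4 the count of 1 became 0 with normexp, quantile normalization, probes above background on every array, slide as a fixed block, array position, scan day or the methods' t-test, became 2 with no limit on the fold change, and was 0 to 1 with 1 animal left out. From day 4 to day 7 the count of 1 became 0 with normexp, probes above background on every array or the methods' t-test. From day 4 to day 12 it became 0 with these 3, quantile normalization and the replicate block, and was 0 to 1 with 1 animal left out. Where only probes above background on every array were kept, MYL5 probe 2 was not among those tested.

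With the replicate number as a block, the count on day 4 after 7.4 Gy was 2 and MYL5 probe 2 changed by -1.45 from day 4 to day 12; the numbers do not pair animals, and the block changed no other count.

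In the 582 alternatives tried for 27 log2 changes, 540 kept their direction and side of the threshold, 30 were no longer called, 5 became called (ACTA2 probe 2 in 4 and MYL5, as the mean of its probes, in 1, all on day 4 after 7.4 Gy) and 7 reversed. Of the reversals 6 came without control replicate 1 and 1 without replicate 2 of day 4 after 6.7 Gy. With 1 animal left out, the changes on day 4 after 6.7 Gy ran from -0.025 to 0.41 for ACTA2 probe 1, -0.58 to 0.48 for ACTG2, -0.13 to 0.42 for DES, -0.13 to 0.89 for MYLK probe 1 and -0.29 to 1.01 for SYNM, and on day 4 after 7.4 Gy from -0.25 to 0.81 for ACTG2. With normexp, MYL5 probe 2 changed by 0.39 on day 4 after 7.4 Gy; this probe lies near background, and the cause was not tested. The number of arrays, and for this probe the background, limits what could be called.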
